A study of Mus musculus with 9 samples.

Results

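Transcript levels of 9 integrin genes were followed in CD11b+ mouse bone marrow cells: Itgam, Itgb2, Itgal and Itgax, which encode the β2 leukocyte integrins, and Itga4, Itga5, Itga8, Itgb1 and Itgb7, which encode integrins with β1 or β7. They were taken by gene symbol from 23337 counted genes, and each of the 9 was found in every library and passed the filter on low counts, which left 12553 genes to test. Values are given in CPM, the counts of a gene scaled to a common library total, after TMM normalization, which also evens out differences in library composition.

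The 9 libraries were made from male C57BL/6 mice, 3 to 6 weeks old when obtained. Each mouse received tail vein injections of 100 µl on days 1, 3 and 5, and bone marrow of femurs and tibias was collected after the last injection. The PBS group (n = 3) received the vehicle. The EnzR EVs group (n = 3) received extracellular vesicles, 10 µg of vesicle protein per injection, from EnzR CWR-R1 cells, the enzalutamide-resistant form of a human prostate cancer line. The EnzR EVs + HDL NPs group (n = 3) received the same vesicles and, on days 0, 2 and 4, HDL-mimicking nanoparticles, which carry a gold core, apolipoprotein A-I and phospholipids, at 1 µM per the sample labels. For these sequenced mice the study's methods give a concentration that is higher by orders of magnitude, and the sources do not settle which was used. Per the study's methods each group held 3 mice, and the labels number its 3 libraries as replicates.

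Integrins are αβ heterodimers that span the membrane and hold leukocytes to matrix and to other cells. The β2 chain pairs with αM, the CD11b antigen, with αL, the CD11a chain of LFA-1, and with αX, the CD11c antigen, and β2 integrins carry neutrophils and monocytes across endothelium. The α4 chain pairs with β1 or β7, α5β1 binds fibronectin, and α8β1 binds nephronectin and is best known from kidney development and from contractile stromal cells. Inside the cell, talin and kindlin bind the β tail, and an integrin then takes its active form.

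The short intracellular stretches that set the resting and active states are printed because they show what the α genes share and where Itga8 differs. The capitals are the codons of the membrane-proximal motif of each α chain, with 6 bases before it and 3 after it. In 5 chains they encode a glycine, a pair of phenylalanines, a lysine and an arginine. In α8 an aspartate stands in the place of the lysine. Sequences are from GENCODE M21 transcripts on GRCm38, written along the coding strand.
Itgam: aagcttGGCTTTTTCAAGCGGcag
Itgal: aaggttGGCTTCTTCAAACGGaac
Itgax: aaggctGGTTTCTTCAAACGTcag
Itga4: aaggctGGATTCTTTAAAAGAcag
Itga5: aagctcGGCTTCTTCAAACGTtcc
Itga8: aagtgtGGATTCTTTGATAGAgca

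Each of the 6 stretches is interrupted by the last intron of its gene. On the plus strand they lie in Itgam at chr7:128116844-128117326, in Itgal at chr7:127330237-127333472, in Itgax at chr7:128149212-128150119 and in Itga4 at chr2:79325692-79326540. On the minus strand they lie in Itga5 at chr15:103345332-103345954 and in Itga8 at chr2:12109181-12110977. Over the 15 bases in capitals, Itgal differed from Itgam at 2 bases, Itga5 at 3, Itgax at 4, Itga4 at 6 and Itga8 at 7.

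The β chains carry a pair of Asn-Pro-x-Tyr or Asn-Pro-x-Phe motifs, the membrane-proximal one for talin and the distal one for kindlin. Their codons are in capitals below, with 6 bases on either side.
Itgb2 proximal: aatgacAACCCCCTCTTCaagagt
Itgb2 distal: gtcatgAACCCCAAGTTTgctgaa
Itgb1 proximal: ggtgaaAATCCTATTTACaagagt
Itgb1 distal: gtggtcAATCCGAAGTATgaggga
Itgb7 proximal: gacaacAATCCTCTCTACaaaagt
Itgb7 distal: actgtcAACCCCCGCTTCcaaggg

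Both Itgb2 motifs end in a Phe codon, both Itgb1 motifs end in a Tyr codon, and Itgb7 has 1 of each. The Itgb2 pair lies at chr10:77564802-77565198, across the junction of exons 15 and 16, and at chr10:77565211-77565234 in exon 16. The Itgb1 pair lies in exon 16 at chr8:128732023-128732046 and chr8:128732059-128732082, and the Itgb7 pair lies on the minus strand in exon 15 at chr15:102216244-102216267 and chr15:102216208-102216231.

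Itgam and Itgax are neighbours on chromosome 7, 11.05 kb apart, and a further same-strand protein-coding gene model, Gm49368 (chr7:128062683-128128160), overlaps Itgam and most of that gap. Itgal lies 727.5 kb before Itgam. Of the genes that the annotation places over a member, the count tables list only Cerkl, opposite Itga4, with 0 to 22 counts, and E030013I19Rik, antisense to the start of Itga8, with 0 to 6. The kit marks strand, but the strand setting of the counting is not given in the sources used here.

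Depth differed between libraries. Totals were 6006087 to 16381679 counts in PBS, 2575776 to 18110561 in EnzR EVs and 13231038 to 16611934 in EnzR EVs + HDL NPs, with the lowest totals in EnzR EVs replicate 1 and PBS replicate 1. Rn45s, the precursor of ribosomal RNA, accounted for 20.3% of all counts in PBS replicate 1. In EnzR EVs replicates 1 and 3 it reached 42.7% and 14.2%, against 0.657% to 2.87% in the other 6 libraries. These 3 libraries stand apart, and the main results that rest on them are also given without them, a setting added after the data were seen that leaves 1 EnzR EVs library. The label of CD11b+ cells was checked against markers: Itgam and Itgb2 were at 1177 CPM or more in every library, the 13 neutrophil markers counted summed to 32965 to 147263 CPM, and B and plasma cell markers summed to 11.6 to 44.2 CPM.

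Per kilobase of exon, which allows levels to be compared between genes, Itgb2 was highest with 522 ± 81.0 CPM per kb (SD, n = 9) and Itgam second with 349 ± 41.9. Itgb2 lay above Itgam in 9 of 9 libraries. Itgb7, Itgal, Itgb1 and Itga4 formed a middle tier with means of 65.6, 56.5, 44.2 and 35.8 CPM per kb. Neighbours in this tier overlapped in range, and Itgb7 lay above Itgal in 6 of 9 libraries, Itgal above Itgb1 in 7, and Itgb1 above Itga4 in 8.

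Itga5 and Itgax followed with 5.67 ± 1.27 and 5.56 ± 1.01 CPM per kb, with Itga5 above in 6 of 9 libraries. Itga8 was lowest with 1.82 ± 0.818, below Itgax in 9 of 9. The ranges of neighbours did not overlap at 3 steps of the order, from Itgam to Itgb7, from Itga4 to Itga5 and from Itgax to Itga8. The exon lengths came from GENCODE and not from the annotation used for counting, so small steps in this order depend on the gene models.

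**Figure D1:**
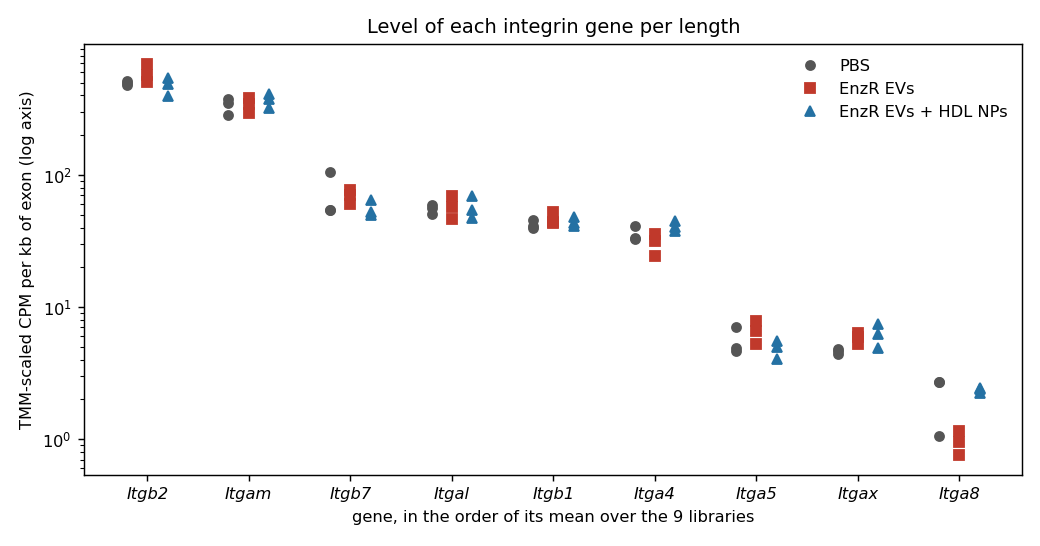
TMM-scaled CPM per kilobase of exon (log axis) of each integrin gene in each of the 9 libraries, with genes ordered by their mean and groups shown by colour and symbol. Itgb2 and Itgam stand above the other 7 genes, and Itga8, with a mean of 1.82 CPM per kb, is lowest.

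Among the α chains of β2, Itgam made up 81.6% to 86.8% of the summed CPM per kb of Itgam, Itgal and Itgax. The sum of these α transcripts per Itgb2 transcript, both per kb, was 0.692, 0.847 and 0.843 in PBS, 0.500, 0.879 and 0.739 in EnzR EVs and 0.941, 0.870 and 0.922 in EnzR EVs + HDL NPs. It was lowest in the 3 libraries with the most Rn45s, and the other 6 lay between 0.843 and 0.941. Among α4, α5 and α8, Itga4 made up 76.8% to 85.8% of the summed CPM per kb.

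No member of the 9 was called in any comparison by edgeR's quasi-likelihood test at an adjusted p under 0.05, in which 0% of all 12553 genes were called between EnzR EVs and PBS, 0% for EnzR EVs + HDL NPs compared with PBS and 0% between the injected groups. The smallest adjusted p over all genes in that test was 0.200, 1.00 and 0.461 in these 3 comparisons, in that order. At an unadjusted p under 0.05 the test passed 436, 268 and 1325 genes, and 1 member, Itga8, in the first comparison, 0 in the second and 2, Itga8 and Itga4, in the third. The share of all genes that passed was 3.47%, 2.13% and 10.6%.

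Itgam, whose product CD11b captured the cells, was at 1389, 1864 and 1733 CPM in PBS replicates 1 to 3. It was at 1458, 1876 and 1707 CPM in EnzR EVs and at 1581, 2006 and 1848 CPM in EnzR EVs + HDL NPs. The 3 groups overlapped, and replicate 1 was the lowest library in each. The log2 fold change against PBS was 0.02 (95% interval -0.40 to 0.44) for EnzR EVs and 0.12 (-0.30 to 0.54) for EnzR EVs + HDL NPs, and between both injected groups it was 0.11 (-0.31 to 0.53). Because the cells were selected on this protein, its level describes the selected cells. In such bulk samples, fewer cells of a type and less RNA per cell cannot be told apart.

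Itgb2, the shared β chain, was at 1484, 1540 and 1435 CPM in PBS, 2070, 1497 and 1693 CPM in EnzR EVs and 1177, 1601 and 1450 CPM in EnzR EVs + HDL NPs. EnzR EVs replicate 1, the shallowest library, was the highest of all, and the groups overlapped. Its log2 fold change was 0.24 (-0.18 to 0.65) for EnzR EVs against PBS and -0.31 (-0.73 to 0.10) for EnzR EVs + HDL NPs against EnzR EVs. With the 2 shallowest libraries left out, PBS replicate 1 and EnzR EVs replicate 1, these values were 0.11 and -0.19, and without the 3 libraries with the most Rn45s they were 0.01 and -0.09.

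Itgal, the αL chain of LFA-1, was at 375, 359 and 325 CPM in PBS, 295, 365 and 440 CPM in EnzR EVs and 300, 347 and 438 CPM in EnzR EVs + HDL NPs. Both injected groups spread around the PBS range, and all 3 log2 fold changes lay between -0.02 and 0.06, with adjusted p from edgeR of 0.971 to 1.00.

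Itgax, the CD11c antigen found on dendritic cells and some monocytes, was the one β2 member whose groups came apart. It was at 20.9, 19.2 and 20.02 CPM in PBS, 27.4, 22.9 and 25.8 CPM in EnzR EVs and 21.2, 32.4 and 27.0 CPM in EnzR EVs + HDL NPs. Every injected library lay above every PBS library, though EnzR EVs + HDL NPs replicate 1 exceeded PBS replicate 1 by less than the counting error of either. A log2 fold change of 0.33 (-0.10 to 0.77, edgeR adjusted p = 0.928) was found for EnzR EVs against PBS and one of 0.42 (0.00 to 0.85, unadjusted p = 0.0502, adjusted p = 1.00) for EnzR EVs + HDL NPs against PBS. Both comparisons share the PBS libraries. Without the 3 libraries with the most Rn45s these values were 0.23 and 0.455.

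Groups that do not overlap were common over all genes: 7.96% of tested genes for EnzR EVs against PBS, where 1 member, Itgax, was among them, and 13.2% for EnzR EVs + HDL NPs against PBS, where 1 member, again Itgax, was. For EnzR EVs + HDL NPs against EnzR EVs it was 17.6% of genes and 2 members, Itga4 and Itga8. The exact two-sided permutation test of 3 libraries against 3 gives 0.1 in these cases, the smallest p it allows.

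**Figure D2:**
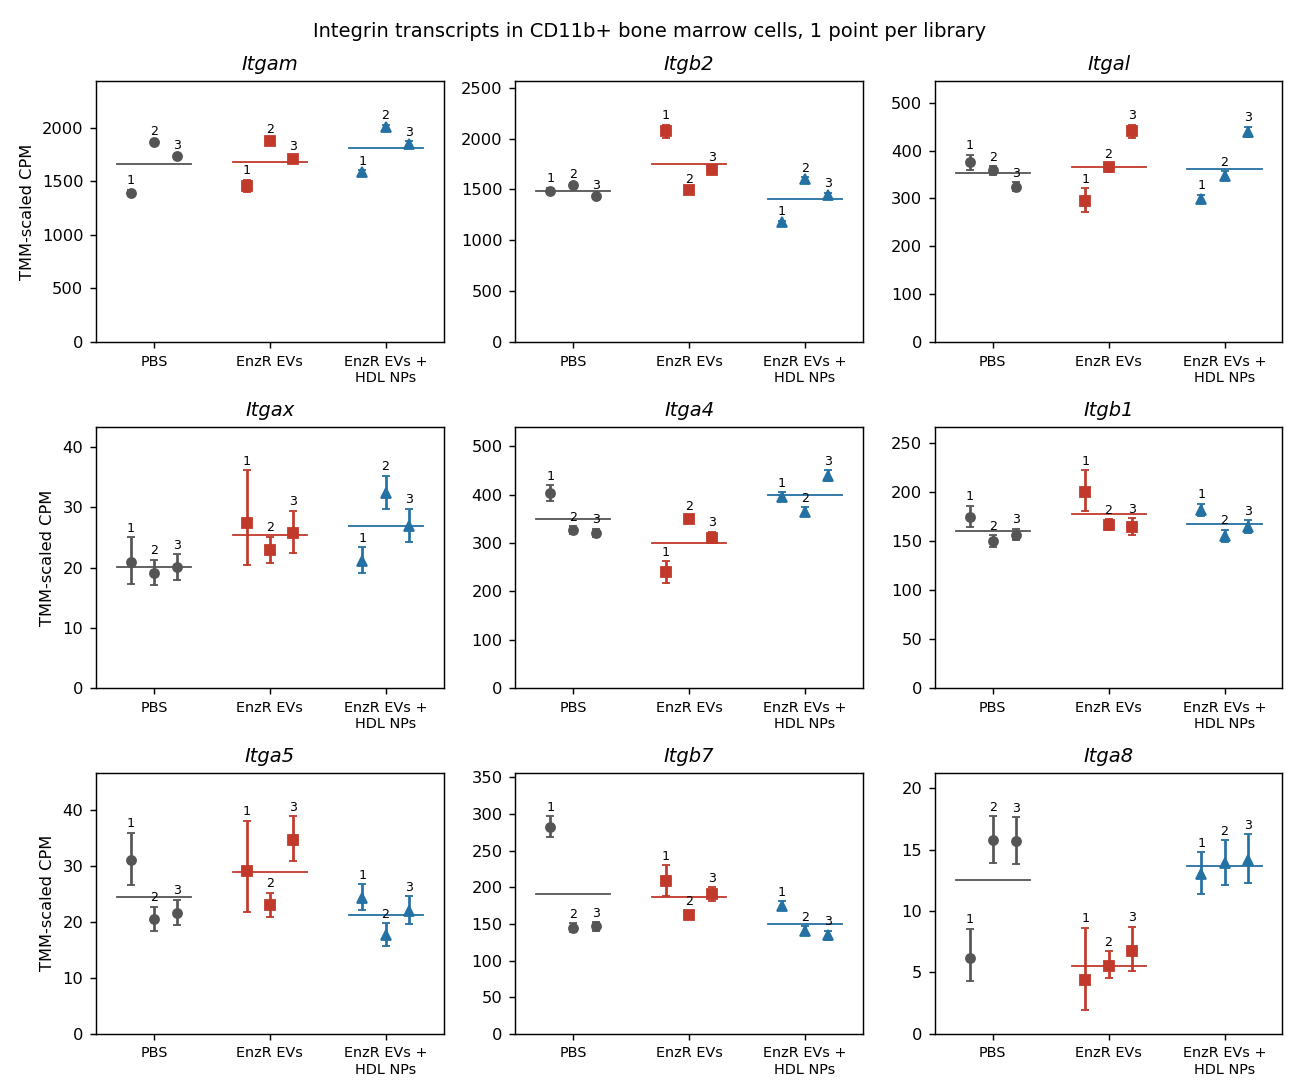
TMM-scaled CPM of each integrin gene (linear axes from 0) in each library, with the replicate number above each point, exact Poisson 95% intervals that cover counting error only, and a line at each group mean. Itga8 is at 4.39 to 6.74 CPM in the 3 EnzR EVs libraries and in PBS replicate 1 at 6.16, and at 13.003 to 15.8 CPM in the other 5.

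Of the β1 and β7 group, Itga4 encodes the α4 chain of VLA-4, which holds myeloid cells to VCAM-1 and fibronectin in the marrow. It was at 403, 326 and 321 CPM in PBS, 239, 349 and 311 CPM in EnzR EVs and 396, 365 and 440 CPM in EnzR EVs + HDL NPs. The EnzR EVs + HDL NPs libraries all lay above the EnzR EVs libraries, and EnzR EVs replicate 1 was lowest. Between them the log2 fold change came to 0.41 (0.01 to 0.82, unadjusted p = 0.0471, edgeR adjusted p = 0.461). Against PBS it was -0.22 (-0.63 to 0.19) for EnzR EVs and 0.19 (-0.21 to 0.60) for EnzR EVs + HDL NPs. With the 2 shallowest libraries left out, the difference between EnzR EVs + HDL NPs and EnzR EVs was 0.27, and that between EnzR EVs and PBS changed sign to 0.04. Without the 3 libraries with the most Rn45s these values were 0.19 and 0.11.

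Itgb1, the β1 chain, had the narrowest intervals of the 9. It was at 175, 150 and 157 CPM in PBS, 201, 167 and 165 CPM in EnzR EVs and 182, 156 and 165 CPM in EnzR EVs + HDL NPs. The groups overlapped, with log2 fold changes against PBS of 0.14 (-0.19 to 0.48) for EnzR EVs and 0.06 (-0.27 to 0.40) for EnzR EVs + HDL NPs, and of -0.08 (-0.42 to 0.25) between the injected groups.

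Itga5, the fibronectin receptor α chain, was at 31.0, 20.4 and 21.6 CPM in PBS, 29.1, 22.9 and 34.6 CPM in EnzR EVs and 24.3, 17.6 and 21.9 CPM in EnzR EVs + HDL NPs. Its 3 highest values came from the 3 libraries with the most Rn45s. The log2 fold change was 0.25 (-0.27 to 0.78) for EnzR EVs against PBS and -0.44 (-0.96 to 0.08, edgeR adjusted p = 0.474) for EnzR EVs + HDL NPs against EnzR EVs, in which the groups overlapped. With those 3 libraries left out these values were 0.13 and -0.11.

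Itgb7, the partner of α4 in the gut-homing integrin α4β7, was at 283, 145 and 147 CPM in PBS, 208, 162 and 191 CPM in EnzR EVs and 175, 141 and 135 CPM in EnzR EVs + HDL NPs. PBS replicate 1 stood above the other 8 libraries, and the PBS group had a coefficient of variation of 41.4%. The ratio of Itgb7 to Itgb1 per kb was 2.30 in that library and 1.16 to 1.64 in the other 8. The log2 fold change for EnzR EVs against PBS was -0.04 (-0.61 to 0.54) with all libraries, 0.35 without PBS replicate 1 and 0.16 without the 3 libraries with the most Rn45s. It was -0.35 (-0.92 to 0.22) for EnzR EVs + HDL NPs against PBS, which turned to 0.04 without those 3 libraries. Between the injected groups it was -0.31 (-0.89 to 0.26). The groups overlapped in each comparison.

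Itga8 had the widest range of the 9 as a ratio of highest to lowest CPM, and the fewest counts. It was at 6.16, 15.8 and 15.7 CPM in PBS (35, 274 and 274 counts), 4.39, 5.53 and 6.74 CPM in EnzR EVs (8, 104 and 57 counts) and 13.003, 13.9 and 14.2 CPM in EnzR EVs + HDL NPs (231, 233 and 203 counts). The 3 EnzR EVs libraries lay below the 3 EnzR EVs + HDL NPs libraries and below PBS replicates 2 and 3, whereas PBS replicate 1 fell inside the EnzR EVs range. Group means were 12.5 ± 5.52 CPM in PBS, 5.55 ± 1.17 in EnzR EVs and 13.7 ± 0.613 in EnzR EVs + HDL NPs (SD, n = 3 each).

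The log2 fold change of Itga8 was -1.15 (-1.90 to -0.40) for EnzR EVs against PBS, with an unadjusted edgeR p of 0.00618, rank 40 of 12553, and an adjusted p of 0.928. It was 1.25 (0.50 to 1.99) for EnzR EVs + HDL NPs against EnzR EVs, with an unadjusted edgeR p of 0.00368, rank 28, and an adjusted p of 0.461. Against PBS, the EnzR EVs + HDL NPs group gave 0.10 (-0.59 to 0.78). The first pair of comparisons shares the EnzR EVs libraries, and neither passed the adjusted threshold. The study drew Itga8 in a figure among the genes it picked from these libraries for EnzR EVs, so its direction here is not independent evidence.

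The difference between EnzR EVs and PBS was larger without PBS replicate 1, at -1.45 with an edgeR adjusted p of 0.268. Without PBS replicate 1 and EnzR EVs replicate 1 it was -1.36 with an adjusted p of 0.0565, and the difference between the injected groups was then 1.17 with an adjusted p of 0.123. Without the 3 libraries with the most Rn45s it was -1.50 with an adjusted p of 0.0537, where the lone EnzR EVs library, replicate 2, is assumed to vary like the other groups. That library has 1.15% Rn45s, 18110561 counts and 5.53 CPM of Itga8 (Poisson 95% interval 4.52 to 6.71). Between the injected groups the difference was then 1.30 with an adjusted p of 0.460.

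**Figure D3:**
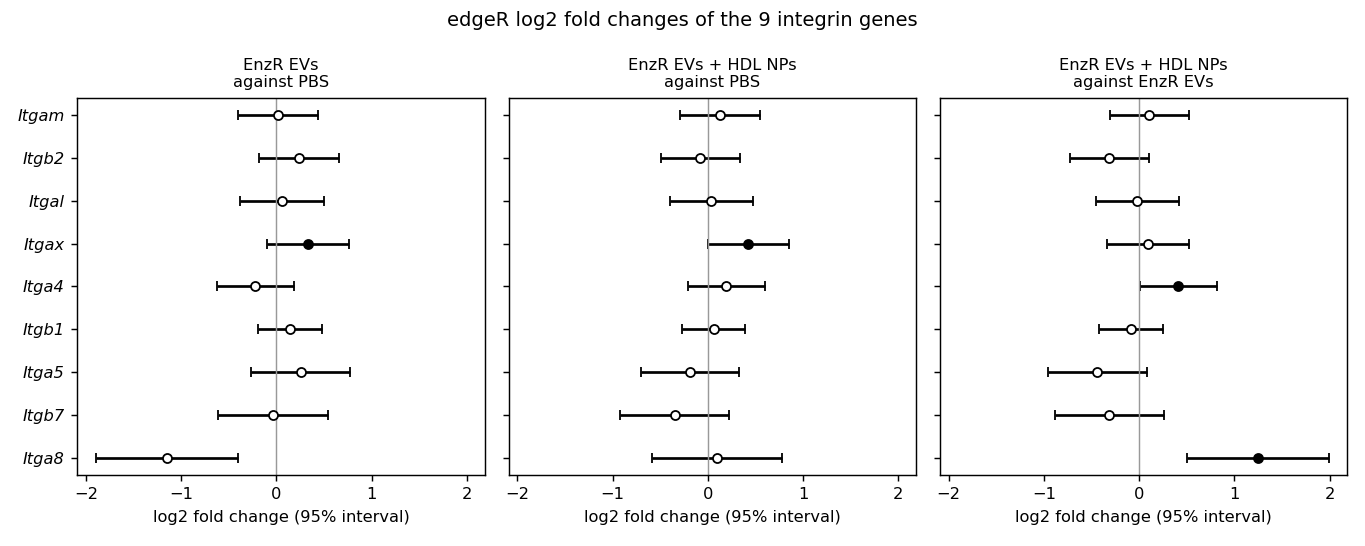
edgeR log2 fold change of each integrin gene with its 95% interval in the 3 comparisons, with filled points where the groups did not overlap. The intervals of Itga8 lie off 0 for EnzR EVs against PBS (-1.15) and for EnzR EVs + HDL NPs against EnzR EVs (1.25).

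limma's voom with sample quality weights, which gives outlying libraries less weight, called 2 members, Itga5 and Itga8, for EnzR EVs against PBS, where it called 15.9% of all genes. Itga5 was then higher by 0.62 on the log2 scale (adjusted p = 0.0241) and Itga8 lower, at -1.24 (adjusted p = 0.0146). For EnzR EVs + HDL NPs against EnzR EVs it called the same pair among 5.20% of all genes, Itga5 at -0.67 (adjusted p = 0.0496) and Itga8 at 1.08 (adjusted p = 0.0474). Between EnzR EVs + HDL NPs and PBS it called 0 members and 0.0797% of all genes. With each library left out in turn, edgeR put Itga5 at 0.07 to 0.45 for EnzR EVs against PBS. Between the injected groups edgeR then put Itga5 at -0.62 to -0.26, so both weighted values lie outside these ranges. Which libraries the weights favoured was not examined. voom without these weights called 0% of all genes and 0 members in each comparison. DESeq2 called 0 members, and of all genes 0.0876% for EnzR EVs and 0.0637% for EnzR EVs + HDL NPs, each against PBS, and 0.00797% between the injected groups.

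**Figure D4:**
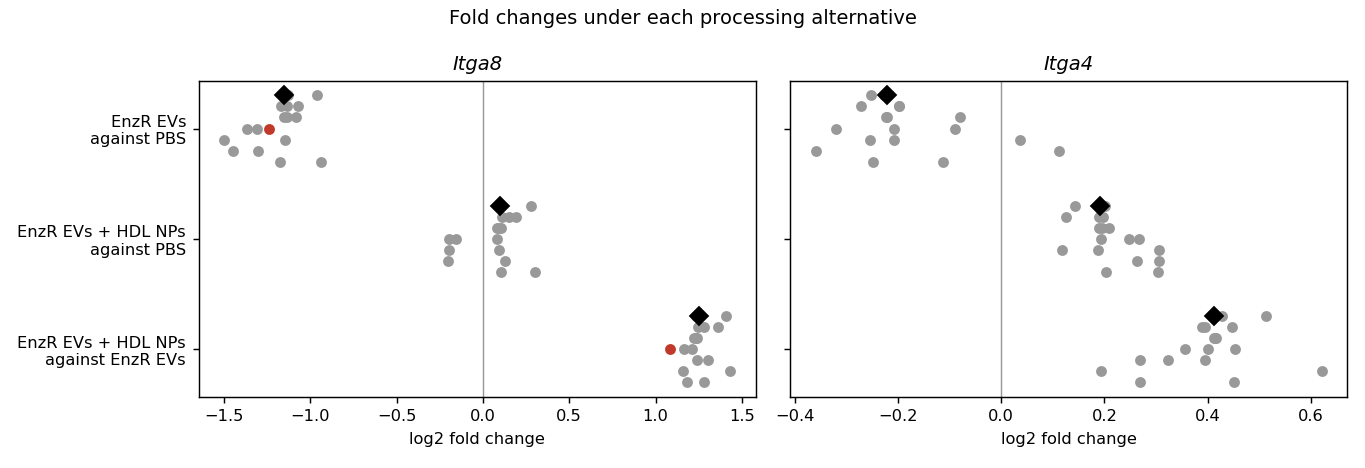
log2 fold change of Itga8 and Itga4 in the 3 comparisons under each processing alternative (circles, red where the adjusted p was under 0.05), with the main edgeR value as a diamond. Itga8 stays between -1.50 and -0.94 for EnzR EVs against PBS and between 1.08 and 1.43 for EnzR EVs + HDL NPs against EnzR EVs.

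Over the 9 members the median log2 fold change was 0.06 for EnzR EVs and 0.06 for EnzR EVs + HDL NPs, each against PBS, and -0.02 between the injected groups, beside -0.03, -0.01 and 0.03 over all tested genes. Members above 0 numbered 6, 6 and 4. The median size of the log2 fold change, regardless of sign, was 0.22, 0.12 and 0.31 in the members and 0.22, 0.18 and 0.30 over all genes.

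The share of Rn45s moved with most members across the 9 libraries. Pearson's r of log2 CPM with the Rn45s percentage was -0.75 for Itga8, -0.73 for Itgam and -0.65 for Itga4, and it was 0.77 for Itgb1, 0.76 for Itgb2, 0.68 for Itgb7 and 0.67 for Itga5. For Itgax and Itgal it was 0.23 and -0.23. Over the 6 libraries without the 3 that had the most Rn45s, where the share ran from 0.657% to 2.87%, r was 0.17 for Itga8, 0.14 for Itgam, 0.50 for Itga4, -0.12 for Itgb1, 0.14 for Itgb2, -0.59 for Itgb7 and 0.16 for Itga5. For Itgax and Itgal it was 0.05 and 0.87. The 3 libraries are also those with the fewest counts, and the part of Rn45s in the differences was not tested.

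**Figure D5:**
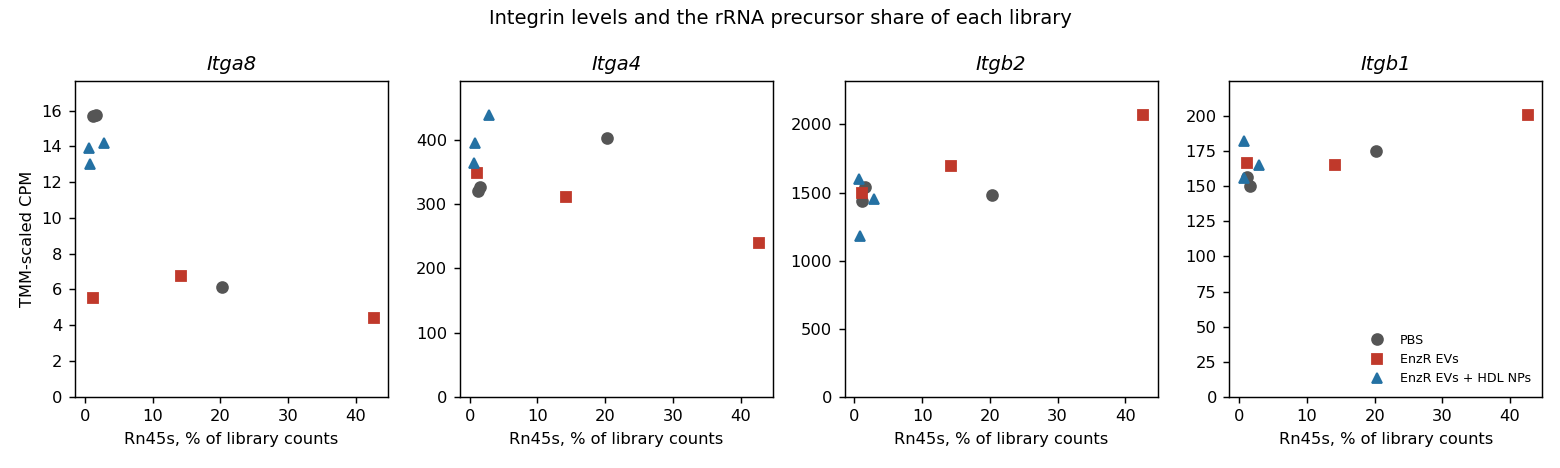
TMM-scaled CPM of Itga8, Itga4, Itgb2 and Itgb1 against the percentage of each library's counts on Rn45s, 1 point per library, groups by colour and symbol. PBS replicate 1 at 20.3% Rn45s has Itga8 at 6.16 CPM, and EnzR EVs replicate 2 at 1.15% has it at 5.53 CPM.

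The markers of cell types gave 0 calls by edgeR in each comparison, and their log2 fold changes were as follows. Of the 11 macrophage markers, 10 were below 0 on the log2 scale for EnzR EVs against PBS (median -0.78) and 11 for EnzR EVs + HDL NPs against PBS (median -0.42), where Itga8 was at 0.10. Between the injected groups 9 were above 0 (median 0.37). Without the 3 libraries with the most Rn45s these medians were -0.80, -0.64 and 0.08. The summed level of the macrophage markers was 792 to 1510 CPM in PBS, 663 to 804 CPM in EnzR EVs and 766 to 977 CPM in EnzR EVs + HDL NPs.

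Other lists lay below 0 for EnzR EVs against PBS as well. This held for 10 of 10 B and plasma cell markers (median -0.998, and -1.59 without the 3 libraries), 5 of 6 erythroid markers (-0.88 and -1.29), 7 of 8 dendritic cell markers (-0.60 and -0.76) and 9 of 10 eosinophil and basophil markers (-0.53 and -0.27). It also held for 8 of 10 platelet and megakaryocyte markers (-0.46 and -1.79), 7 of 11 stromal and endothelial markers (-0.21 and -0.99) and 6 of 10 T and NK cell markers (-0.37 and -0.35). The 6 erythroid markers are those tested of 13 listed, and the globin genes Hba-a1, Hba-a2, Hbb-b1 and Hbb-b2 had 0 counts in every library. The 8 monocyte markers, all below 0, turned from a median of -0.31 to 0.08 without the 3 libraries, and the neutrophil markers, 10 of 13 below 0, from -0.12 to 0.15. For EnzR EVs + HDL NPs against PBS these medians were -0.85 and -0.65 (B and plasma cell) and -0.56 and -0.51 (erythroid). They were -0.71 and -1.08 (platelet and megakaryocyte), -0.20 and -0.49 (stromal and endothelial) and -0.33 and -0.39 (T and NK cell). The rest were -0.36 and -0.29 (dendritic cell), -0.13 and -0.29 (eosinophil and basophil), -0.13 and -0.04 (monocyte) and 0.07 and -0.10 (neutrophil).

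Between the injected groups, where Itga8 was at 1.25, medians with all libraries and without the 3 were 0.30 and 0.69 (B and plasma cell). They were 0.24 and 1.025 (erythroid), -0.22 and 0.63 (platelet and megakaryocyte), 0.22 and 0.49 (stromal and endothelial) and 0.15 and 0.46 (dendritic cell). Eosinophil and basophil markers went from 0.50 to -0.03 and neutrophil markers from 0.13 to -0.15. Monocyte markers went from 0.21 to -0.06 and T and NK cell markers from 0.07 to -0.04. The median r of Itga8 over the 9 libraries was 0.71 with the macrophage markers, with single genes from -0.65 to 0.85. It was 0.57 with stromal and endothelial, 0.52 with eosinophil and basophil, 0.51 with neutrophil, 0.49 with platelet and megakaryocyte and 0.41 with monocyte markers. With the T and NK cell, erythroid, dendritic cell and B and plasma cell markers it was 0.10, 0.10, -0.13 and -0.24. Single genes spread widely in other lists too, from -0.84 to 0.88 for T and NK cell markers and from -0.53 to 0.86 for stromal and endothelial markers. The part of these cells in the integrin values was not tested.

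The gene most like Itga8 over the 9 libraries was Ptgdr (r = 0.96), followed by 4930478L05Rik and Tcea2. Itgam was most like Rnf144a (r = 0.98), then Ncf1, a subunit of the neutrophil NADPH oxidase, and Mtmr3. The genes nearest to Itgb2 were Dgat1, Atg4d and Lasp1, those nearest to Itgal were Tmem184b, Trpc4ap and Gfpt1, and those nearest to Itgax were Mpp7, Gsdmd and Fkbpl. Itga4 was most like Cd46, Thoc2 and Vps13c, and Itgb1 most like Ssb, Fem1b and 2610101N10Rik. Itga5 was most like Mycn (r = 0.97) and also like Zfp444, and Itgb7 most like Irf8 (r = 0.98), Tex2 and Ei24. Among the members, Itga5 and Itgb7 were most alike (r = 0.80). These genes were picked as the highest of all 12553 tested, and the libraries share differences in depth and Rn45s.

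The promoter stretches of Itgam and Itga8 are printed as those of the highest α gene and the most variable one, 120 bases before the RefSeq start (GRCm38.p6), Itgam on the plus strand at chr7:128062520-128062639 and Itga8 on the minus strand at chr2:12301945-12302064. Capitals mark the letters GAGGAA, a core of sites for the myeloid factor PU.1, or GGGCGG, a core of sites for Sp1, on either strand.
Itgam promoter: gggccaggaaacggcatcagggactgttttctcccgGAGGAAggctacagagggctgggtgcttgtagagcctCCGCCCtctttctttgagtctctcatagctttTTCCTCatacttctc
Itga8 promoter: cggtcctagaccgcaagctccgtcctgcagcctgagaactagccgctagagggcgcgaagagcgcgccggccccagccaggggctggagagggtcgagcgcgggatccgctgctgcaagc

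The longer RefSeq window, from 250 bases before to 50 after the start, was given for 7 of the 9 genes. GAGGAA occurred in 4 of them (Itga5, Itgam, Itgb1 and Itgb7) and in 28.3% of all 32851 promoters. GGGCGG occurred in 4 (Itga4, Itga5, Itgam and Itgb1) and in 35.7% of all, and TGTGGT, a core of RUNX sites, in 2 (Itga4 and Itgax) and in 16.8% of all. The Itga8 window held none of the 3.

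The other genes of integrin biology gave 0 calls by edgeR in each comparison. Of 18 other integrin genes 12 were tested, with a median log2 fold change of -0.20 for EnzR EVs and -0.07 for EnzR EVs + HDL NPs, each against PBS, and 0.20 between the injected groups. Itgad, the αD chain of macrophages and a further partner of β2, was at 12.5, 22.7 and 42.0 CPM in PBS, 6.58, 17.4 and 9.93 CPM in EnzR EVs and 23.0, 18.9 and 17.0 CPM in EnzR EVs + HDL NPs. Its log2 fold change for EnzR EVs against PBS was -1.11 ± 0.43 (SE, edgeR adjusted p = 0.928), with overlapping groups, and -0.89 without the 3 libraries. Itgb5 was lower in each EnzR EVs + HDL NPs library than in any PBS library (-0.64 ± 0.28, edgeR adjusted p = 1.00), and the difference was -0.49 without the 3 libraries. Itgav, Itgb3, Itga2b, Itga6 and Itgae lay between -0.49 and 0.41 in all 3 comparisons, and both ends are from Itgae, with 4 to 26 counts per library. Itgav was higher in each EnzR EVs + HDL NPs library (94.6 to 117 CPM) than in any EnzR EVs library (76.3 to 93.9 CPM). Its log2 fold change there was 0.25 (edgeR adjusted p = 0.502).

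Of the ligands 13 of 22 were tested. Fn1, fibronectin, the ligand of α5β1 and α4β1, was at 1503, 1228 and 1185 CPM in PBS, 533, 923 and 783 CPM in EnzR EVs and 1233, 1041 and 984 CPM in EnzR EVs + HDL NPs. The EnzR EVs libraries lay below all the others, with a log2 fold change of -0.81 ± 0.22 (SE) against PBS (edgeR adjusted p = 0.928), and the difference between the injected groups was 0.54 ± 0.22 (edgeR adjusted p = 0.461). Without the 3 libraries with the most Rn45s these Fn1 values were -0.38 and 0.23. Vcam1, the ligand of α4β1 and also one of the macrophage markers above, was at 206, 274 and 401 CPM in PBS, 174, 194 and 172 CPM in EnzR EVs and 294, 196 and 219 CPM in EnzR EVs + HDL NPs. The EnzR EVs libraries again lay below all the others, replicate 2 by a small margin. The log2 fold change of Vcam1 against PBS was -0.71 ± 0.25 (SE, edgeR adjusted p = 0.928) for EnzR EVs and -0.31 ± 0.24 (edgeR adjusted p = 1.00) for EnzR EVs + HDL NPs, and between the injected groups it was 0.39 ± 0.24 (edgeR adjusted p = 0.501). Without the 3 libraries these Vcam1 values were -0.80, -0.51 and 0.28. Icam1 and Icam2, ligands of LFA-1, lay between -0.18 and 0.08. Npnt, nephronectin, the ligand of α8β1, had 0 to 7 counts per library and was not tested.

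The talin and kindlin machinery of integrin activation was represented by 30 of 33 genes, with medians of -0.14, -0.01 and 0.18. Tln1, Fermt3, Rap1b, Rasgrp2 and Apbb1ip lay between -0.23 and 0.26 in the 3 comparisons, each with overlapping groups. Of the 19 genes of signalling downstream of β2 all were tested (medians -0.10, 0.04 and 0.07), and the kinases Syk and Fgr lay between -0.08 and 0.08.

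Selplg, which encodes the selectin ligand PSGL-1, and Adam17, a protease that sheds surface proteins of leukocytes, lay between -0.15 and 0.08 on the log2 scale in the 3 comparisons. Of 17 genes of selectins and their ligands 15 were tested, with medians of -0.02, 0.03 and 0.06.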

How the data were processed

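The deposited tables hold raw counts of reads per gene, which the authors made from stranded, rRNA-depleted total RNA libraries. The authors trimmed adapters, filtered rRNA reads, aligned to mm10 with STAR and counted with HTSeq 0.6.1p1 on a UCSC annotation; cutadapt 1.13 and DESeq2 are named in the submitters' processing notes. Rn45s reads remained in the counts. The 9 members, the gene lists and the tests were chosen with earlier results of these data known, and the genes named from the lists were fixed by symbol, beside the 3 genes most like each member. Counts were filtered by expression and TMM-scaled, and groups were compared with edgeR 4.0.16 (R 4.3.3), a quasi-likelihood test on all 9 libraries with Benjamini-Hochberg adjustment over 12553 genes and a threshold of 0.05. Intervals are 95% intervals of the log2 fold change. Likeness is Pearson's r of log2 CPM with a prior count of 2. DESeq2 1.42.0, limma 3.58.1, other scalings and filters, and leaving out libraries were alternatives. The scripts were tested on simulated data. No 2 libraries of the same group agreed within sampling noise. A few genes that these rules would name are not reported here.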

Additional observations from a re-analysis of the deposited data

How the results depend on the processing

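In the main edgeR test 0 genes and 0 members were called in each comparison. For all genes, EnzR EVs against PBS gave 11 calls with DESeq2, 1990 with voom and sample quality weights, 1 without a filter, 1 with the replicate block, 5 without the 2 libraries with the lowest totals, 10 without the 3 libraries with over 10% Rn45s and 0 to 2 with 1 library left out, the 2 without PBS replicate 1. EnzR EVs + HDL NPs against PBS gave 8 and 10 with DESeq2 and the weighted voom. EnzR EVs + HDL NPs against EnzR EVs gave 1 and 653 with these, and 1 with only the 6 libraries of both groups, without the 2 libraries and without the 3. Of the members, the weighted voom called 2 in the first comparison and 2 in the last. The cause of these differences was not tested.

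The replicate numbers were not taken as pairs in the main test. The deviations of same-numbered libraries correlated at -0.175 to 0.492 (mean 0.17), with 6 of 9 over 0.1. Those of different-numbered libraries correlated at -0.533 to 0.43 (mean -0.08), with 6 of 18 over 0.1. These values do not settle whether the numbers mark pairs. The replicate block called 0 members and turned 1 value, Itgb7 for EnzR EVs against PBS, to 0.0283. Itga8 had no value under the filter of 10 counts in every library. Of 27 member values, 13 kept their sign under every alternative run, among them both Itga8 values that involve EnzR EVs and Itga4 for EnzR EVs + HDL NPs against EnzR EVs.

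For EnzR EVs against PBS the sign turned for Itgam at -0.15 (library size only), -0.0674 (weighted voom) and -0.0176 (no filter), for Itgal at -0.0915 and Itgb1 at -0.0516 (library size only), for Itga4 at 0.0366 and 0.112 (2 and 3 libraries left out), and for Itgb7 at 0.0263 (voom), 0.33 (weighted voom), 0.28 and 0.16 (2 and 3 left out). For EnzR EVs + HDL NPs against PBS it turned with 2 and 3 libraries left out for Itga5 (0.01712 and 0.01705), Itgb7 (0.04267 and 0.0427) and Itga8 (-0.20 and -0.20), and for Itga8 with the weighted voom (-0.16). For EnzR EVs + HDL NPs against EnzR EVs it turned for Itgal at 0.19 (library size only) and 0.0195 (no filter), for Itgb1 at 0.18 (library size only), 0.00614 and 0.00226 (2 and 3 left out) and for Itgam at -0.0533 (3 left out). Scaling by library size alone moved the median of all genes from -0.03 to -0.18 for EnzR EVs against PBS and from 0.03 to 0.24 for EnzR EVs + HDL NPs against EnzR EVs.

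With each library left out in turn, values that turned ranged, for EnzR EVs against PBS, from -0.10 to 0.13 (Itgam), -0.10 to 0.19 (Itgal) and -0.19 to 0.35 (Itgb7). For EnzR EVs + HDL NPs against PBS they ranged from -0.18 to 0.0477 (Itgb2), -0.12 to 0.16 (Itgal), -0.30 to 0.0155 (Itga5), -0.52 to 0.0412 (Itgb7) and -0.20 to 0.30 (Itga8). For EnzR EVs + HDL NPs against EnzR EVs they ranged from -0.20 to 0.14 (Itgal), -0.0902 to 0.23 (Itgax) and -0.16 to 0.00654 (Itgb1). Depth limits the Itga8 value of EnzR EVs replicate 1, which rests on 8 counts.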
